A study of Mus musculus with 12 samples.

Results

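The genes described here encode the plasma proteins of blood coagulation and fibrinolysis, together with their cell-bound partners, in the livers of untreated male and female CD-1 mice, an outbred stock. They were chosen by symbol from a list of 33, and all 33 were found among the 24197 RefSeq genes of the table. RNA was taken from whole liver (total RNA) or from liver nuclei purified through sucrose (nuclear RNA), and ribosomal RNA was depleted in part. There were 12 libraries in 4 groups of 3 pools: total RNA of females, total RNA of males, nuclear RNA of females and nuclear RNA of males. Pools combined 12 to 17 animals, at 7 to 11 weeks of age, so animals within a pool could not be told apart, and p-values measure the spread between pools. In bulk RNA, fewer cells of a type and less RNA per cell cannot be told apart.

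The liver makes nearly all plasma coagulation factors, and hepatocytes are their main source. Tissue factor (F3) with factor VII (F7) starts the cascade, the contact factors can start it by another route, and thrombin (made from F2) cuts fibrinogen (Fga, Fgb and Fgg) into fibrin. Antithrombin (Serpinc1), protein C (Proc) and the protein Z dependent inhibitor (Serpina10) brake the cascade, and plasmin (made from plasminogen, Plg) dissolves the clot. Several of these proteins need vitamin K, whose cycle runs through Ggcx and Vkorc1.

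The deposited table gives the authors' mean FPKM (fragments scaled to transcript length and library size) per group, with a male over female ratio and an adjusted p per fraction. Genes with an adjusted p under 0.05 are called, and log2 values between sexes are male over female, so negative values mean higher in females. The deposited ratios are scaled between libraries, and their log2 exceeded that of the quotient of mean FPKM by a median of 0.48 in total and 0.12 in nuclear RNA. Differences between the sexes are therefore given on the deposited scale, which the quotient of printed means does not give. From the digits of the means, the whole reads of each library could be worked out for 30 members; the fibrinogen genes, with the most reads, were not resolved. In female total RNA the recovered reads are less certain for 9 members, among them F2 and Serpinc1, for which 0.169 and 0.144 other solutions were expected by chance, and F5 and Plg, with 0.413 and 0.411. Libraries recovered in this way are called A, B and C from the largest to the smallest, because which pool each came from is not known. They held 17.9 to 23.9 M reads (M, mega) in female total, 11.3 to 24.4 M in male total, 21.4 to 22.7 M in female nuclear and 20.2 to 22.6 M in male nuclear RNA. In total RNA, reads of the same genes took unequal shares of a library, with scale factors per read from 0.60 in female library C to 2.19 in female library B, against 0.88 to 1.06 in nuclear RNA. Values per library below are scaled for this and given as scaled FPKM. Lane 3 carried every male total pool and 1 female total pool; lane 4 carried the remaining female total pools and every nuclear one. Sex and lane thus overlap in part in total RNA, and fraction and lane overlap fully in males and in part in females. Since the pool of each recovered library is not known, these cannot be told apart. The nuclear comparison of sexes lies within lane 4.

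Of the 33 members, 26 had a promoter in the RefSeq promoter table (build GRCm38.p6), and the following stretches of 150 bases end at the base before the annotated transcript start. F7, F2, F10 and F5 are shown because each holds 1 letter-for-letter match to the nuclear receptor element AGGTCA, in capitals and reading TGACCT on the strand shown. Kng2 and Serpinf2 also hold the element within 150 bases before the start, in the other orientation, and are not shown.
F7, chr8:13025884-13026033, plus strand: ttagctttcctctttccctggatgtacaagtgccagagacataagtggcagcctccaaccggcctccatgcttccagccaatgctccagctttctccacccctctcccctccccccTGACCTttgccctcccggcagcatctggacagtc
F2, chr2:91636458-91636607, minus strand: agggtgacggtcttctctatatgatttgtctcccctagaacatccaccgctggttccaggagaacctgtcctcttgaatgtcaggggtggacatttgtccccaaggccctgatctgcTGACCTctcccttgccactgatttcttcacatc
F10, chr8:13037158-13037307, plus strand: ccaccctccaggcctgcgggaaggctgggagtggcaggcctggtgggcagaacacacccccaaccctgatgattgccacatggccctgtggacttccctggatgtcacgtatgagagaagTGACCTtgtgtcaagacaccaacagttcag
F5, chr1:164151685-164151834, plus strand: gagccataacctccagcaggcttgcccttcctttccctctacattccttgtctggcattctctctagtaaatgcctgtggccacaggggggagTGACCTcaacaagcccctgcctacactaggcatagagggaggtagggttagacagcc
The fibrinogen chains Fga and Fgb are shown because both hold a C/EBP motif (TTGCNNAA) followed by an HNF1 motif (GTTAAT) on one or the other strand, both in capitals. Habp2 holds the motifs in the same order within 150 bases before the start and is not shown.
Fga, chr3:83026003-83026152, plus strand: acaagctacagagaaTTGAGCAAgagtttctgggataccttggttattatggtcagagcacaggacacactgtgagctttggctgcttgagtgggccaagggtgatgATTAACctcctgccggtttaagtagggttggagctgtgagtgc
Fgb, chr3:83049864-83050013, minus strand: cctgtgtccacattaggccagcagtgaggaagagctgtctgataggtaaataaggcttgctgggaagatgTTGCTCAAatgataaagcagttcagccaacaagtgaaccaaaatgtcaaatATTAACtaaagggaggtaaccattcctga

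The match began 34 bases before the start in F7, 33 in F2, 30 in F10 and 57 in F5. Within 40 bases before the start, TGACCT stood at 3 of 26 members (11.5%: F7, F2 and F10) and at 1.08% of all genes. Only this orientation was counted, that of the stretches shown, and the window of 40 bases was chosen after these positions were seen. Over the whole window of 250 bases before to 50 after the start, with both strands searched, AGGTCA stood at 38.5% of the 26 member genes and 18.1% of all 27025 genes of the table, a gene counting once if any of its promoters held the letters. The C/EBP motif TTGCNNAA stood in 42.3% against 12.2%, the HNF1 motif GTTAAT in 23.1% against 8.24%, and CAAAGT, part of the HNF4A site, in 30.8% against 16.1%. The FOXA motif TGTTTAC stood in 11.5% against 4.05%, the STAT5/BCL6 motif TTCNNNGAA in 15.4% against 9.55% and the TATA box TATAAA in 15.4% against 15.7%. Of the 9 members called for a sex difference in either fraction, 7 had a promoter in the table. AGGTCA was found in 4 of these 7, TTGCNNAA in 3, CAAAGT in 2, and TTCNNNGAA and TGTTTAC in 0. These are letter matches in 1 window per start, and no binding was measured.

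The members spanned more than 4 orders of magnitude in FPKM, which is per length and so can be set side by side between genes. Fgb led with a mean of 464 FPKM in female and 410 in male total RNA, followed by Fgg (405 and 355) and Fga (257 and 225), the 3 chains of fibrinogen. Plasminogen (Plg, 147 and 100 FPKM) and antithrombin (Serpinc1, 121 and 74.95) came next. At the other end stood genes whose products come largely from cells other than hepatocytes. Tissue factor (F3) had 0.272 and 0.243 FPKM, its inhibitor Tfpi 0.447 and 0.322, and von Willebrand factor (Vwf), a product of endothelium and platelets, 0.226 and 0.167. Urokinase (Plau) had 0.152 and 0.0565 FPKM, and tissue plasminogen activator (Plat) 0.0136 and 0.0244. Plat rested on 2 or 3 reads in each group and Plau on 8 to 23, and Plat's values lay near or under the floor of 3 reads per group (0.0179 to 0.0210 FPKM, counting error only). In female total RNA, 19 of the 23 Plau reads came from library B and none from library C.

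**Figure D1:**
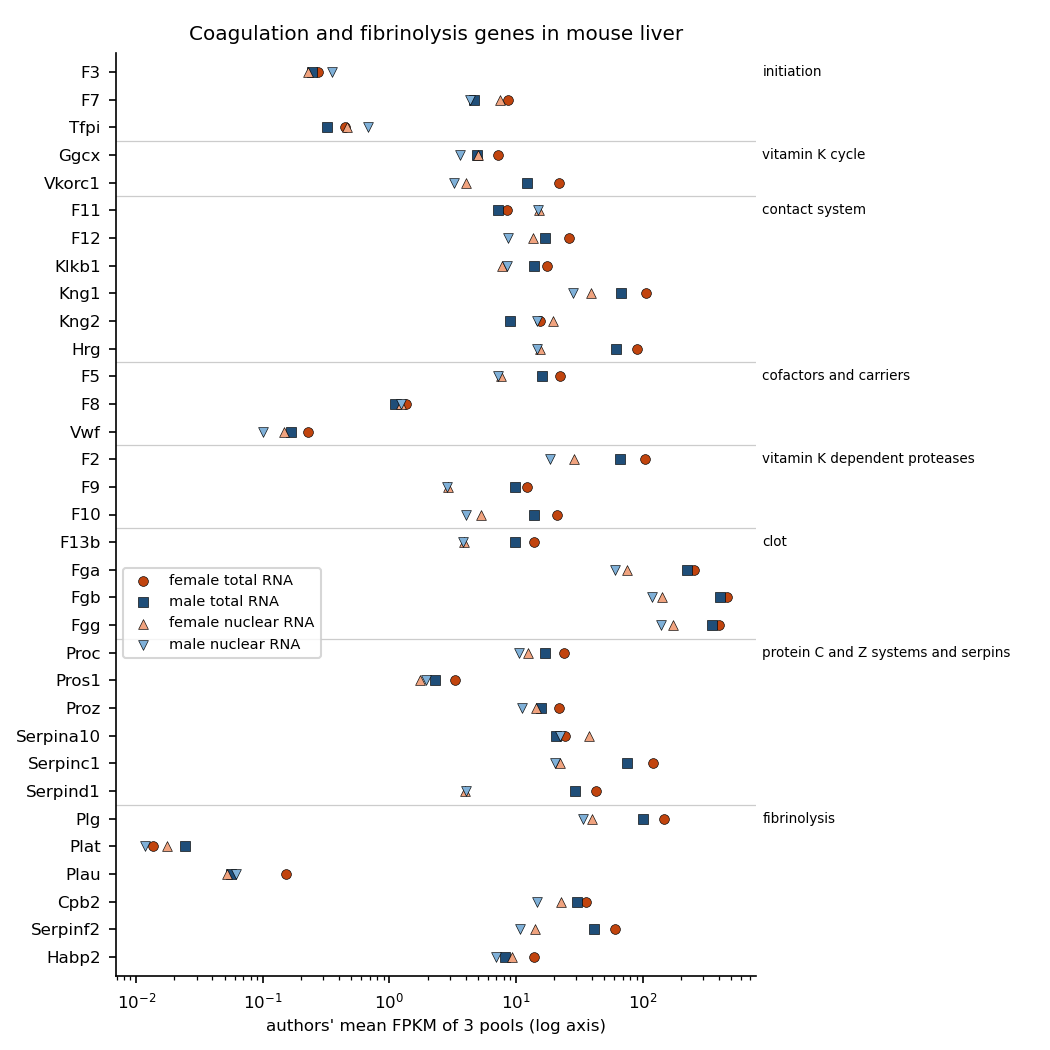
Authors' mean FPKM of 3 pools (log axis) for the 33 members, grouped by role, with a symbol for each of the 4 groups of libraries. The fibrinogen chains lie highest, at 225 FPKM or more in total RNA, and Plat lowest; most members lie farther right in total than in nuclear RNA, with F11, Kng2, Serpina10, Tfpi and Plat the other way round in females.

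The labelled tissue was checked against marker lists. All 8 hepatocyte markers were present, with a summed 4499 to 7754 FPKM in the total RNA groups, against 22.6 to 37.5 for 12 sinusoidal endothelial markers and 0.565 to 0.657 for 10 platelet markers, of which 2 to 4 were listed at 0 in each group. Summed nuclear FPKM was 434 to 519 for hepatocyte markers and 31.1 to 32.8 for endothelial markers. Of the hepatocyte markers, 3 were called higher in females and 2 higher in males in nuclear RNA, among them Ahsg (deposited log2 -0.47), Apoa1 (0.58) and Serpina1c (0.71), and 2 in each direction in total RNA. None of the endothelial, platelet, stellate, Kupffer or cholangiocyte markers was called between the sexes in nuclear RNA. In total RNA, 2 endothelial, 2 stellate and 3 Kupffer markers were called higher in females and 1 cholangiocyte marker higher in males; the part of marker differences in the members' values was not tested.

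In total RNA, F7 was the 1 member called between the sexes in the deposited table. F7, the protease that pairs with tissue factor, averaged 6.64 ± 0.20 scaled FPKM in females and 4.91 ± 0.37 in males (SD, n = 3). Single libraries gave 6.85, 6.64 and 6.45 in females and 4.98, 5.24 and 4.51 in males. Every female library lay above every male one. The authors' deposited table gives a log2 of -0.41 with an adjusted p of 0.0299. That 1 of 33 is set against 4.46% of 16404 genes above 0 called in total RNA, or 9.17% of 6175 genes with at least 1 FPKM. The median log2 of the 28 members with at least 1 FPKM was -0.06, and that of all such genes was 0.00. Vkorc1, the reductase that recycles vitamin K, lay just outside the threshold in the deposited table (log2 -0.36, adjusted p = 0.0782), as did Habp2, a plasma protease that can activate factor VII (log2 -0.34, adjusted p = 0.0852).

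A fit to the recovered reads gave a second reading of total RNA. It used limma on 4182 recovered genes with a mean of at least 5 scaled reads, among them 28 members. The search over all genes stopped at 4000 reads in a library, and 24 members were added by a search of members alone. Shares of fitted genes, here and below, thus come from genes limited in reads, and no share at the members' level was computed. In total RNA the fit called 3 members, all higher in females, where 3.11% of fitted genes were called in that direction. F7 had a log2 of -0.44 (SE 0.11, adjusted p = 0.0239), Habp2 -0.38 (SE 0.10, adjusted p = 0.0259) and Serpinc1 -0.24 (SE 0.07, adjusted p = 0.0336). Habp2 had 11.3, 10.2 and 12.1 scaled FPKM in the female libraries and 9.44, 8.22 and 8.17 in the male ones. Serpinc1, the main inhibitor of thrombin, had 94.2, 92.0 and 97.7 scaled FPKM in females against 81.2, 79.8 and 78.5 in males. The sexes did not overlap for any of the 3 genes, but single libraries decided the calls. F7 was lost without female total library B, and also without female library A or male library C, where 0 members were called. Habp2 was lost without female library A or C or male library B or C, and Serpinc1 without any of the 6 total RNA libraries or female nuclear library A.

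More members were called between the sexes in nuclear than in total RNA, nearly all higher in females. The total RNA libraries were less even in scale factor, so these counts do not measure a larger sex difference in nuclei. The authors' deposited table calls 9 of 33 members, 8 higher in females and 1, Tfpi, higher in males. Over all 17467 genes above 0 in nuclear RNA, 2.98% were called higher in females and 2.82% higher in males. Among the 5759 genes with at least 1 FPKM, 7.12% were called higher in females, against 8 of the 28 members above that floor. Most of these members lay well above 1 FPKM, and no share of genes at their own level was computed. The median log2 of those 28 members was -0.18 and that of all such genes was -0.01. The limma fit called the same 9 and also Serpinf2, that is 9 higher in females and 1 higher in males, where 2.92% and 2.87% of fitted genes were called in these directions. Those shares come from genes limited in reads, as above, not from genes at the members' level.

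Among the genes that start the cascade, F7 was higher in female nuclei with 7.86, 7.67 and 6.26 scaled FPKM against 5.01, 4.05 and 4.61 in male nuclei. The lowest female library lay above the highest male one. Its log2 was -0.67 in the deposited table (adjusted p = 1.88e-05) and -0.67 in limma (SE 0.11, adjusted p = 0.000498). Tfpi, which blocks the complex of tissue factor and factor VII, went the other way, with 0.456, 0.451 and 0.419 scaled FPKM in female and 0.746, 0.756 and 0.608 in male nuclei. These groups did not overlap either, at 47 to 63 reads a library in males and 35 to 40 in females. Tfpi's deposited log2 was 0.68 (adjusted p = 0.00942), and in limma it was 0.66 (SE 0.19, adjusted p = 0.0466), a call lost when any 1 of the 6 nuclear libraries, female total library A or B, or male total library B was left out. F3 had a deposited log2 of 0.76 with an adjusted p of 0.34.

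In the vitamin K cycle, Ggcx was called and Vkorc1 was not. Ggcx, the carboxylase that equips clotting factors for calcium binding, had 4.71, 5.25 and 4.47 scaled FPKM in female nuclei and 3.62, 3.86 and 3.81 in male nuclei, with no overlap. Its deposited log2 was -0.35 (adjusted p = 0.0386), and limma gave -0.35 (SE 0.09, adjusted p = 0.0285), a call lost without either of the larger female nuclear libraries or any male nuclear one. Vkorc1 had a deposited nuclear log2 of -0.17 (adjusted p = 1).

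Of the 6 contact system genes, F12, Kng1 and Kng2 were called higher in female nuclei. Factor XII (F12), whose activation starts the contact pathway, had 14.3, 12.9 and 12.1 scaled FPKM in females and 9.89, 8.93 and 8.28 in males. Its deposited log2 was -0.53 (adjusted p = 4.13e-05). Kininogen 1 (Kng1), which carries prekallikrein and factor XI and releases bradykinin, had 38.8, 40.2 and 34.7 in females and 32.8, 26.6 and 28.7 in males, with a deposited log2 of -0.36 (adjusted p = 0.0147). Its neighbour and near copy Kng2 had 18.2, 19.5 and 19.1 against 15.8, 14.1 and 15.6, with a deposited log2 of -0.31 (adjusted p = 0.0135). The groups of all 3 genes stood apart, but Kng1 and Kng2 are paralogs between which reads may have been split, so their separate values are uncertain. In limma, F12 had an adjusted p of 0.000855, Kng1 of 0.00312 and Kng2 of 0.0441, and only Kng2 lost its call when a library was left out. Prekallikrein (Klkb1) had higher scaled values in every male library of both fractions (in total RNA its unscaled log2 is -0.34), with 9.15, 9.09 and 8.17 scaled FPKM in male and 7.39, 8.03 and 7.01 in female nuclei. It was not called by the deposited table (log2 0.24, adjusted p = 0.218) or by limma (adjusted p = 0.117). Factor XI (F11) and the kininogen relative Hrg had deposited nuclear log2 values of 0.09 and 0.04, both with an adjusted p of 1.

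The vitamin K dependent proteases split, with F2 called and F9 and F10 not. Prothrombin (F2) had 28.2, 27.8 and 27.3 scaled FPKM in female nuclei and 20.4, 17.8 and 19.8 in male nuclei, a gap several times the spread within either sex. Its deposited log2 was -0.51 (adjusted p = 1.65e-07), and limma gave -0.52 (SE 0.07, adjusted p = 3.65e-05). In total RNA every female library of F2 (80.4, 79.9 and 82.6) also lay above every male one (74.9, 71.2 and 64.8), with a limma log2 of -0.21 (SE 0.07) that missed the threshold (adjusted p = 0.10). Factor X (F10) had a deposited nuclear log2 of -0.28 (adjusted p = 0.308) and factor IX (F9) of 0.08 (adjusted p = 1).

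The cofactors and the clot itself showed no call in either fraction. Factor V (F5) had a deposited nuclear log2 of 0.03, factor VIII (F8), made largely by endothelium, of 0.11, and Vwf of -0.46 (adjusted p = 0.574). The fibrinogen chains moved together on the deposited scale, at 0.25 to 0.26 in total RNA (adjusted p from 0.58 to 0.628) and at -0.13 to -0.21 in nuclear RNA (adjusted p from 0.379 to 1). On the unscaled quotient their total RNA values were -0.18 to -0.19, so their direction in total RNA depends on the scaling. F13b, the carrier subunit of the fibrin-linking factor XIII, had 0.07 in nuclear RNA (adjusted p = 1).

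Among inhibitors, Serpina10 was called, with the smallest adjusted p of the members in the deposited table (in limma that of F2 was smaller). Serpina10, which with protein Z (Proz) inhibits factor Xa, had 36.97, 37.7 and 35.3 scaled FPKM in female nuclei and 23.0, 21.9 and 24.6 in male nuclei. Its deposited log2 was -0.65 (adjusted p = 8.14e-12), and limma gave -0.66 (SE 0.10, adjusted p = 0.000242). In total RNA the same gene had 14.6, 21.1 and 19.2 in females and 21.7, 23.8 and 20.7 in males, overlapping groups with the higher mean in males (deposited log2 0.29, but -0.24 on the unscaled quotient of means). None of the other 5 inhibitors and protein C and Z genes was called in nuclear RNA in the deposited table. Protein S (Pros1), the cofactor of protein C, had 1.766, 1.498 and 1.814 scaled FPKM in female and 2.11, 1.93 and 2.02 in male nuclei, which did not overlap, with a deposited log2 of 0.26 (adjusted p = 0.433). Serpinc1 was nearly level there, at 21.7, 22.3 and 20.9 in females and 22.4, 19.4 and 21.6 in males.

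Of the 6 fibrinolysis genes, Cpb2 was called in nuclear RNA. Cpb2, the carboxypeptidase that slows clot lysis (TAFI), had 22.4, 20.8 and 21.95 scaled FPKM in female nuclei and 14.4, 12.8 and 17.98 in male nuclei. Male library C was the highest of its group, yet under every female library. Its deposited log2 was -0.52 (adjusted p = 0.00222), and limma gave -0.54 (SE 0.10, adjusted p = 0.00114). Serpinf2, the plasmin inhibitor, lay just outside the threshold in the deposited table (log2 -0.30, adjusted p = 0.0639) and inside it in limma (log2 -0.30, SE 0.08, adjusted p = 0.0272), with 14.4, 14.01 and 12.7 scaled FPKM in females and 11.8, 10.2 and 11.4 in males. That call was lost without either of the 2 larger female nuclear libraries, male nuclear library B or male nuclear library C. Habp2 was close to the threshold in both (deposited adjusted p = 0.0757, limma adjusted p = 0.0665), and Plg had a deposited log2 of -0.13 (adjusted p = 0.716).

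**Figure D2:**
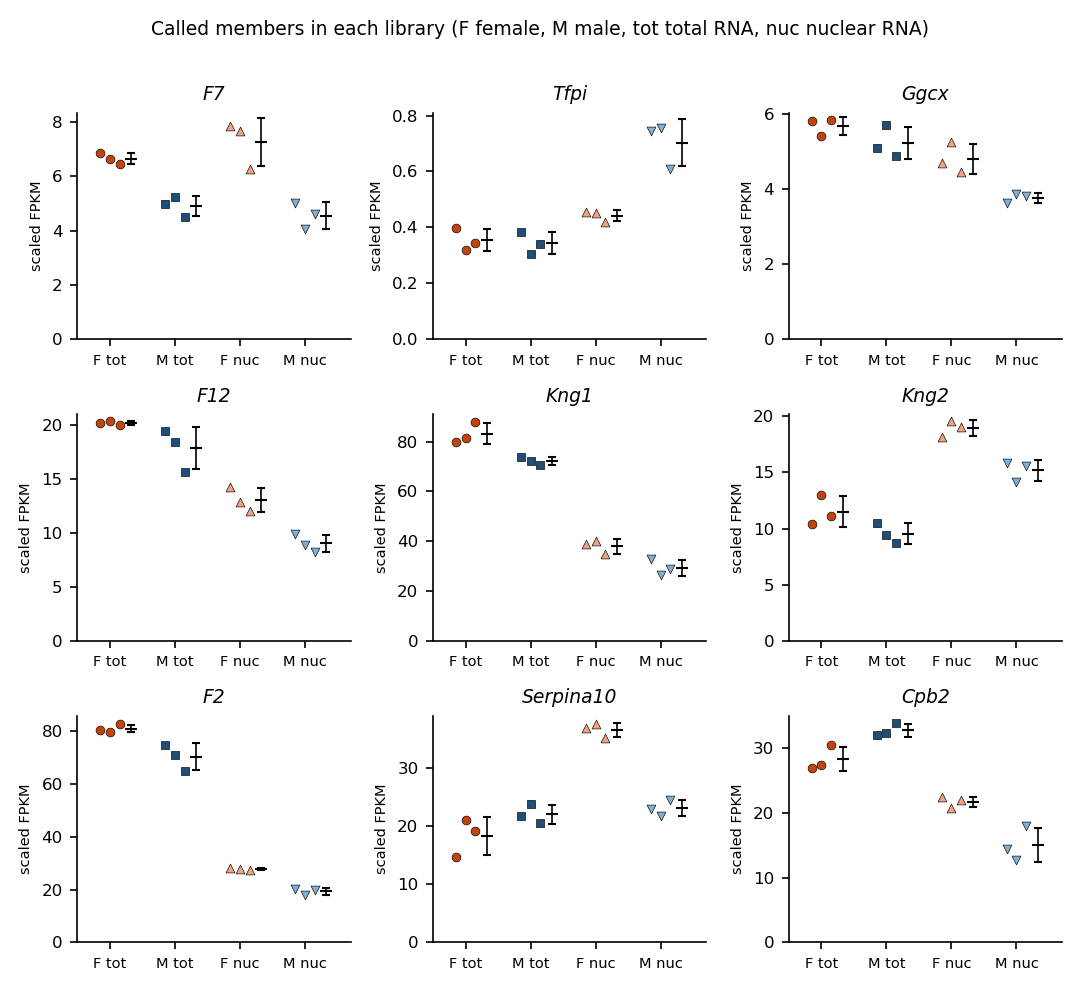
Scaled FPKM in each library of the 9 members called in the deposited table, with the group mean and SD (n = 3) beside the points; every vertical axis starts at 0. In nuclear RNA the sexes do not overlap in any of the 9 panels, while in total RNA Serpina10 and Cpb2 have their higher mean in males, which turns round without the scaling.

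Over the 28 fitted members, every female library lay above every male library for 11 in nuclear RNA, where 13.6% of fitted genes did so, and for 9 in total RNA, against 12.8%. The reverse held for 5 members in nuclear and 2 in total RNA, where 12.3% and 8.92% of fitted genes did so. The fitted genes were limited in reads, so these shares are not at the members' level.

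The sex difference was then compared between the fractions, with the interaction term of the limma fit. It passed for 2 of 28 members, where 0.359% of fitted genes passed. That share too is of genes limited in reads. For Serpina10 the nuclear log2 was lower than the total one by 0.95 (value -0.95, SE 0.15, adjusted p = 0.00365), and for Cpb2 the interaction was -0.75 (SE 0.14, adjusted p = 0.0153). On the scaled values both had the higher mean in males in total RNA, which turns round on the unscaled quotient of means (-0.24 and -0.23), with limma log2 values of 0.28 (SE 0.10) and 0.21 (SE 0.10) that did not pass (adjusted p = 0.126 and 0.243). Serpina10 passed with any of the 12 libraries left out, and Cpb2 in 10 of 12, being lost without female nuclear library A or male nuclear library A. For the remaining members called in nuclear RNA the interaction missed the threshold, with -0.23 for F7 (SE 0.16), -0.35 for F12 (SE 0.13), -0.32 for F2 (SE 0.10) and 0.70 for Tfpi (SE 0.27), and adjusted p from 0.29 to 0.933. Call lists alone therefore do not show that these genes differ between fractions.

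**Figure D3:**
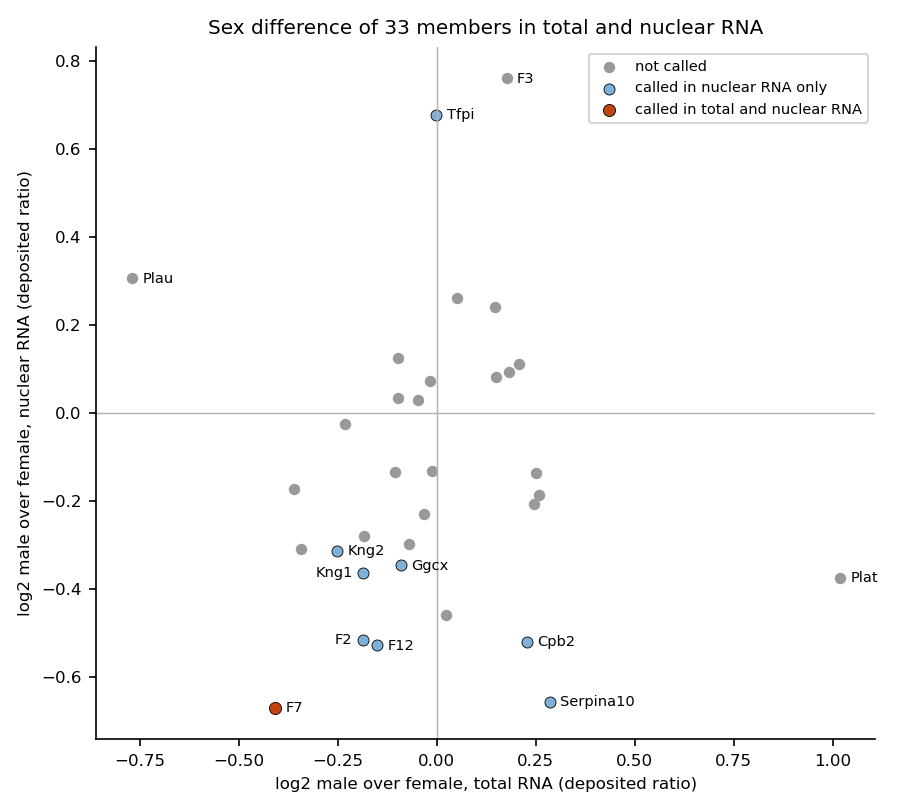
Deposited log2 male over female of the 33 members in total RNA (horizontal) and nuclear RNA (vertical), with members called in the deposited table coloured. F7 is low on both axes, Serpina10 and Cpb2 lie at the lower right with positive total and negative nuclear values, and Tfpi lies at 0 in total and 0.68 in nuclear RNA; Plat and Plau, at the horizontal extremes, rest on few reads.

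Nuclear RNA was next set against total RNA. On the authors' means, as log2((nuclear + 1)/(total + 1)) less the median of all genes with at least 1 FPKM, 23 of 28 members lay below that median in each sex. Their own median was -0.99 in females and -1.01 in males, below the lower quartile of all genes (-0.61 and -0.63). The fitted members are another set of 28, with F3, Tfpi and Vwf in place of the fibrinogen genes. In limma, averaged over the sexes, 21 of these 28 members were lower in nuclear than in total RNA and 4 were higher, where 28.7% and 44.3% of fitted genes were so. These values are relative to equal scaled reads, and the median of all fitted genes was 0.26 against -0.78 for the 28 fitted members. Here too the fitted genes were limited in reads. Heparin cofactor II (Serpind1), an inhibitor of thrombin, was the farthest down, with 33.8 ± 1.2 scaled FPKM in female total RNA and 3.85 ± 0.16 in female nuclear RNA (SD, n = 3). Its log2 was -3.13 in females (SE 0.08, adjusted p = 1.05e-16) and -2.90 in males (SE 0.08, adjusted p = 4.88e-16). Averaged over the sexes, Hrg (-2.15) and Vkorc1 (-2.04) followed.

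The 4 members higher in nuclear RNA when averaged over the sexes were F11, Kng2, Tfpi and Serpina10. F11 had 7.05, 6.07 and 7.82 scaled FPKM in female total and 14.3, 14.1 and 15.7 in female nuclear RNA, and males had 7.83, 7.90 and 7.29 against 15.5, 15.9 and 15.6. The fractions did not overlap in either sex, with log2 values of 1.08 and 1.03 (SE 0.09 each; adjusted p = 2.94e-09 in females and 7.65e-09 in males). Tfpi was at 0.32 in females (SE 0.19, adjusted p = 0.158) and 1.02 in males (SE 0.19, adjusted p = 0.000114). Kng2 was at 0.72 in females and 0.67 in males (SE 0.09 each). Its near copy Kng1 lay at -1.22 over both sexes (SE 0.05). Reads may have been split between these paralogs, and a long noncoding RNA described below overlaps both. Their separate values are therefore uncertain here too. Serpina10 was at 1.02 in females (SE 0.10, adjusted p = 4.61e-08) and 0.07 in males (SE 0.10, adjusted p = 0.574). F3, F7 and F8 were the 3 members that passed in neither direction, with adjusted p of 0.503, 0.948 and 0.0569.

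**Figure D4:**
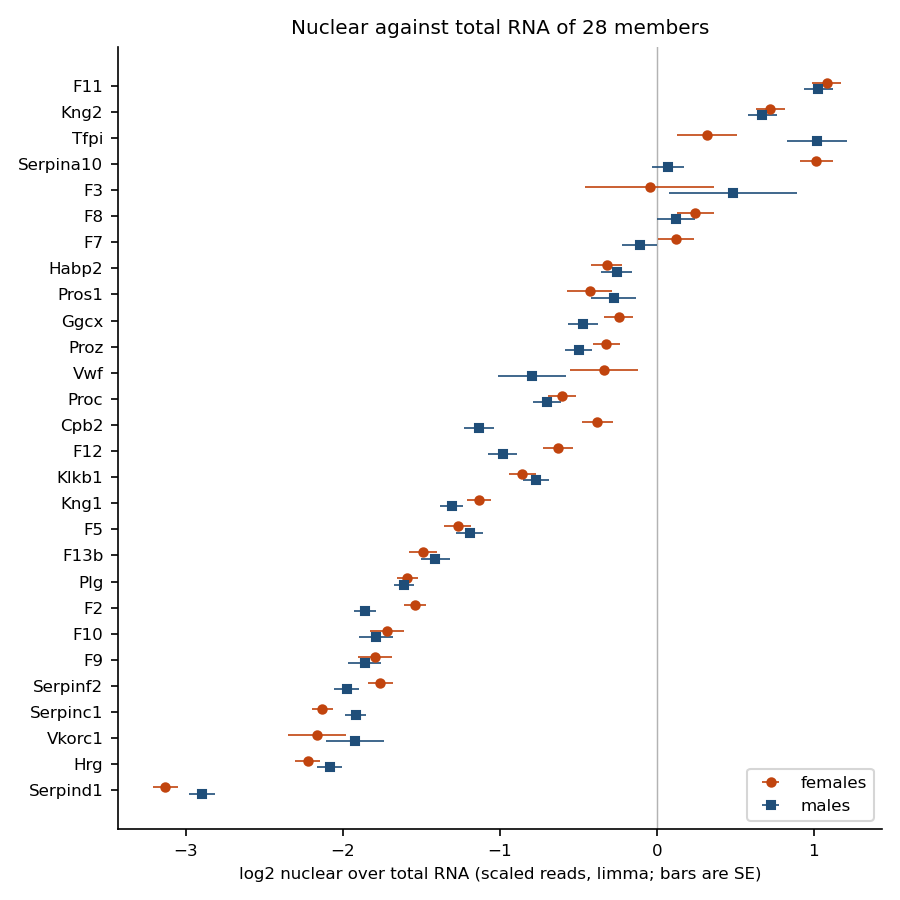
log2 nuclear over total RNA from limma for the 28 fitted members, by sex, with bars of 1 SE; 0 stands for equal scaled reads, and the median of all fitted genes lies at 0.24 in females and 0.27 in males. F11 and Kng2 lie to the right of 0 in both sexes, Serpina10 lies at 1.02 in females and 0.07 in males, and Serpind1 is farthest left.

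Long noncoding RNAs (lncRNAs) at the members gave a further measurement from the same libraries, as the authors' mean RPKM. Of the 15558 in the table, 30 overlapped a member or lay within 10 kb of one, beside 18 of the 33 genes, and 20 of the 30 stayed under 1 RPKM in every group. In nuclear RNA 2 of the 30 passed the deposited false discovery rate of 0.05, both higher in females, against 4.88% of 13118 lncRNAs, and in total RNA 0 passed, against 1.35% of 10706. At an unadjusted p under 0.05, 4 of the 30 stood in nuclear RNA, against 12.1% of those tested, and 3 in total RNA, against 5.03%. All these shares are of lncRNAs above 0 in the fraction, while some of the 30 were at 0 in both sexes in total RNA.

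The lncRNA ncRNA_as_chr12_10847 (mm9 chr12:104851944-104854754, minus strand) lies 130 bases from Serpina10 (chr12:104854884-104869654), past its 3′ end and on its strand. It averaged 32.8 RPKM in female and 19.2 in male nuclear RNA, a deposited log2 of -0.66 (false discovery rate 1.59e-05), close to the -0.65 of Serpina10. In total RNA it averaged 7.53 and 4.605 RPKM with a deposited log2 of 0.05 (false discovery rate 1). Its printed mean there was higher in females, so its direction in total RNA depends on the scaling. The median offset of 0.48 given above is that of RefSeq genes, and none was computed for lncRNAs. Whether reads of ncRNA_as_chr12_10847 belong to transcripts that run on from Serpina10 was not tested.

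The lncRNA ncRNA_intra_chr16_13152 (mm9 chr16:23019191-23065404, plus strand) spans from Kng2 (chr16:22985924-23029174) into Kng1 (chr16:23058372-23082151). Its nuclear means were 12.1 RPKM in females and 7.80 in males, a deposited log2 of -0.52 (false discovery rate 0.0391), beside -0.31 for Kng2 and -0.36 for Kng1. Its total RNA means were 3.99 and 1.68 RPKM (log2 -0.48, false discovery rate 1). It overlaps both genes on 1 strand or the other, and no source used here says if reads were counted by strand, so reads of the 3 cannot be fully told apart.

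Past the 3′ end of F2 lies ncRNA_as_chr2_1550 (mm9 chr2:91460701-91465293, minus strand), 183 bases from the gene. It had 5.25 and 4.06 RPKM in female and male nuclear RNA, a deposited log2 of -0.26 that was not called (false discovery rate 0.556). ncRNA_as_chr3_2485, which overlaps Fga on the opposite strand, had 20.04 RPKM in female and 16.4 in male nuclear RNA (log2 -0.17, false discovery rate 1). In total RNA its log2 was 1.96 (2.11 and 4.95 RPKM, false discovery rate 0.181). Among the lncRNAs that reached 1 RPKM in a group, Gm16548 at F5 and ncRNA_as_chr16_13151 at Hrg had the higher nuclear mean in males. The rest had it in females, and most of these lncRNAs were not called.

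**Figure D5:**
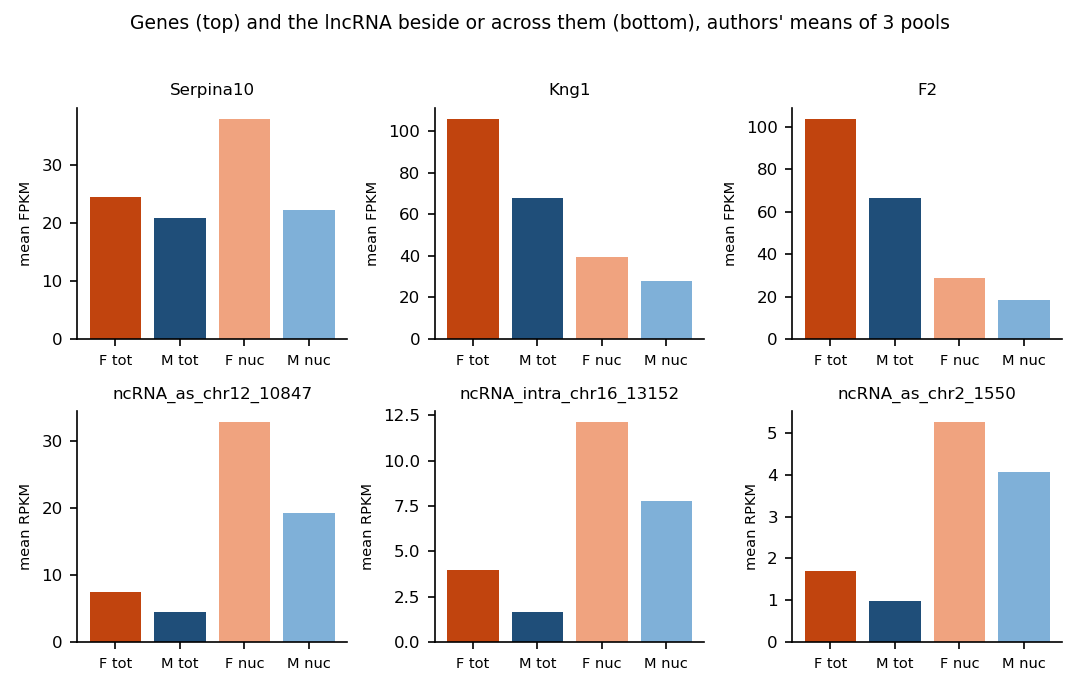
Authors' means of 3 pools for Serpina10, Kng1 and F2 (top, FPKM) and for the lncRNA beside or across each (bottom, RPKM), as bars from 0 with no replicate error; F is female, M male, tot total and nuc nuclear RNA. In nuclear RNA the female bar is the taller one for all 6, and the 3 lncRNAs are higher in nuclear than in total RNA in both sexes. The pairs were picked and do not stand for all lncRNAs at the members, and the lncRNA beside F2 was not called.

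Beyond the members, 41 of 42 other listed genes of coagulation and its control were found. In total RNA 4 were called higher in females and 3 higher in males, where 2.36% and 2.1% of all genes above 0 were. In nuclear RNA 5 and 2 were called, where 2.98% and 2.82% of all genes were. Fgl1, a liver protein related to fibrinogen, was at 34.2 FPKM in female and 16.6 in male nuclei (deposited log2 -0.92, adjusted p = 1.68e-09), with a total RNA log2 of -0.16 (adjusted p = 1). Gas6, a vitamin K dependent growth factor, was higher in females in both fractions (deposited log2 -0.65, adjusted p = 0.0369 in total; -1.24, adjusted p = 5.26e-11 in nuclear RNA). Adamts13, which cleaves von Willebrand factor, was higher in female nuclei (log2 -0.53, adjusted p = 0.0207), as was Lrp1, a clearance receptor (log2 -0.40, adjusted p = 0.00206). Adamts13 was low, at 1.08 FPKM in female and 0.682 in male nuclei. The protease gene Hgfac (log2 -0.54, adjusted p = 0.00201), Serpinb6a (-0.87, adjusted p = 0.0337) and Nqo1 (-1.39, adjusted p = 0.0211) were higher in female total RNA. Nqo1 was low, at 0.733 FPKM in female and 0.185 in male total RNA. The thrombin receptor F2r was higher in male total RNA (log2 0.89, adjusted p = 7.49e-06), as was Vkorc1l1, a relative of Vkorc1 (0.52, adjusted p = 0.0242). Serpina5, the protein C inhibitor (log2 1.48, adjusted p = 0.0211), and the complement protease gene C1ra (0.47, adjusted p = 0.0348) were higher in male nuclei. Serpina5 was low, at 0.110 FPKM in female and 0.291 in male nuclei. A2m was called in opposite directions, with log2 3.54 in total and -2.47 in nuclear RNA, at under 0.5 FPKM in every group.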

How the data were processed

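Total and nuclear liver RNA of both sexes was compared in 12 libraries, grouped by their labels. The submitters' processing notes name TopHat2, featureCounts, edgeR and the build mm9, without versions. Per the file headers, the authors deposited mean FPKM per group, male over female ratios and adjusted p-values for RefSeq genes, and mean RPKM, log2 fold changes, p-values and false discovery rates for lncRNAs. Other values of the deposited lncRNA table stand in another order in 3 rows, which were left out. No per-sample column was left unused (0). Per-library reads were recovered from the deposited FPKM, since a mean over 3 libraries is a sum of whole reads over whole library sizes. Given the exonic length, its digits leave few solutions. Only solutions near each library's expected share of reads were searched, which bounds the spread between recovered libraries. The part of this bound in the SDs, SEs and non-overlap was not tested. Up to 0.5 chance matches per group were allowed for members, against 0.02 in the search over all genes. The search found 2919 of 16598 genes at the annotated length and 11 at a deliberately wrong one. With lengths up to 12 bases off, and members searched singly, 6804 genes were recovered. Of these, 4182 passed the filter on low reads and were fitted. A wrong length was not tried for these wider searches, so the 11 gives no rate of false matches for the fitted genes. For 13 of the 30 members recovered the length differed from the annotated one by over 12 bases and was itself taken from the digits, as the length at which all groups gave whole reads. In nuclear RNA the deposited log2 ratio tracked that of the recovered summed reads with an SD of 0.00292, against 0.00702 for the quotient of means; in total RNA these were 0.0367 and 0.0398, so this check says little there. The recovered genes are mostly of low or middle level.

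Calls are the authors' adjusted p-values under 0.05. Since pools were not expected in the table, the plan held no test of libraries, and limma was added after seeing the data. It was limma 3.58.1 (R 4.3.3, trend, Benjamini-Hochberg over all fitted genes) on log2(scaled reads + 0.5), with median-of-ratios scaling and a minimum mean of 5 reads. The fit was tried on simulated data with 2-fold sex differences in nuclear RNA only. Smaller differences, total RNA, the interaction and the fractions were not tried in this way. Python 3.11.15 (numba, pandas 2.3.3) recovered the reads. Named are all members, with full values for called ones and the 5 highest and 5 lowest, and called genes of the list of other coagulation genes. Members and lists were chosen with earlier results of these data known. Coordinates are mm9 except for promoters.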

Additional observations from a re-analysis of the deposited data

Results flagged for a closer look

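The sex difference of 2 members differed between nuclear and total RNA by the interaction term of the limma fit. For Serpina10 the difference of the log2 values (nuclear less total) was -0.95 (SE 0.15, adjusted p = 0.00365), with the higher scaled mean in females in nuclear and in males in total RNA (unscaled log2 -0.24 there). For Cpb2 it was -0.75 (SE 0.14, adjusted p = 0.0153), with the same pattern of directions (unscaled log2 -0.23 in total RNA). Nuclear and total RNA also differ in lane, fully in males and in part in females. The total RNA libraries differ more in scale factor than the nuclear ones. The part of lane and scale factor in these values was not tested. With female total library B, the one with the largest scale factor, left out, Serpina10 was also called in total RNA, higher in males (log2 0.40, adjusted p = 0.0328).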

How the results depend on the processing

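In the deposited table, 1 member was called in total RNA, against 0 at an adjusted p under 0.01, 0 with a 2-fold minimum added and 3 by limma on recovered reads. In nuclear RNA, 9 were called, against 6 at 0.01, 0 with the 2-fold minimum and 10 by limma. On the unscaled quotient of means no called member changed direction, but 32 rather than 20 members were lower in males in total RNA. With each library left out in turn, limma called 0 to 3 members in total RNA, 6 to 10 in nuclear RNA and 1 to 2 for the interaction. With no filter on low values it called 1, 6 and 1. Scaling by the sum of recovered reads gave 2, 8 and 2, losing Serpinc1 in total RNA and Ggcx and Kng2 in nuclear RNA. In nuclear RNA, F7, F12, F2, Kng1, Serpina10 and Cpb2 stayed called in all 12 such fits. Of the lncRNAs called in nuclear RNA, 1 overlaps a member and 1 passed at a false discovery rate of 0.01. TATAAA stood in 2 member promoters when only bases before the start were searched, against 4. The cause of these changes was not tested. No paired analysis was possible because the recovered libraries carry no pool number. The fibrinogen genes have no values per library, and reads per library limit Plat, Plau, F3, Tfpi and Vwf.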
